A study of Mus musculus with 12 samples.

Results

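The genes described are 10 that are commonly used as a readout of the response to low oxygen and of glycolysis: Slc2a1, Hk2, Pfkp, Aldoa, Pgk1, Ldha, Pdk1, Vegfa, Bnip3 and Adm. They were taken by symbol from the 21743 genes of a single-cell count table, and all 10 were found and passed the filter on low counts. The table came from Drop-seq, which tags the RNA of single cells in droplets and counts unique molecular identifiers (UMIs), so that each UMI stands for 1 captured RNA molecule. It held 21157 cells in 12 libraries of 2 Brca1-deficient mice, each of which gave a mammary gland sample and a mammary tumor sample. The question was how the tumor of each mouse differed from the gland of the same mouse, and how the tumors differed from each other.

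Both mice carried MMTV-Cre and Brca1flox/flox on a mixed C57BL/6 and 129/Sv background, and neither received a treatment named in the labels. Mouse 1 gave gland MG1 (2 libraries, 818 cells) and tumor MT1 (5 libraries, 7690 cells), and mouse 2 gave gland MG2 (2 libraries, 2335 cells) and tumor MT2 (3 libraries, 10314 cells). The glands carried the same floxed alleles and the same Cre as the tumors, so that no group is wild type. The mouse mammary tumor virus promoter drives Cre mostly in mammary epithelium, and hematopoietic and endothelial cells were depleted before capture. The labels give no age. All libraries of a group came from 1 tissue of 1 animal, so that p-values between groups cover the spread between libraries and not between animals.

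Cells that lack oxygen stabilize hypoxia-inducible factors (HIF), transcription factors that bind a short core motif near their target genes. HIF targets raise glucose uptake and glycolysis, hold pyruvate back from the mitochondria, remove mitochondria and call in blood vessels. The same glycolytic genes are also high in many dividing and tumor cells that have oxygen, a state known as aerobic glycolysis, and the secretory mammary epithelium takes up glucose to make lactose. Within the group, Slc2a1 encodes the glucose transporter GLUT1. Hk2, Pfkp, Aldoa and Pgk1 encode hexokinase, phosphofructokinase, aldolase and phosphoglycerate kinase of glycolysis, and Ldha the lactate dehydrogenase subunit that turns pyruvate into lactate. Pdk1 encodes a kinase that shuts the pyruvate dehydrogenase gate to the mitochondria. Vegfa and Adm encode the secreted factors VEGF-A and adrenomedullin, which act on vessels, and Bnip3 a mitochondrial membrane protein of mitophagy and cell death.

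The promoters of the 8 genes that were called in both mice are shown first, with the HIF core motif marked in them. RefSeq promoters of build GRCm38.p6, from 250 bases before to 50 bases after each start, were searched for ACGTG or GCGTG on either strand, where CACGT and CACGC are the same motifs read on the other strand and CACGTG is matched on both. A match was found in at least 1 promoter of 10 of the 10 genes, which have 15 listed promoters. Of all 27025 genes with a listed promoter 46.7% had a match, as had 43.8% of the 32851 promoters, and the form ACGTG was found for 7 of the 10 genes against 21.8% of all genes. A match describes these letters only and is no measured binding site. The stretches of 30 bases below run 5′ to 3′ on the strand of the gene, with the motif in capitals. They lie at chr7:46845750-46845779 (plus strand, Ldha), chrX:106186947-106186976 (plus strand, Pgk1), chr7:138909598-138909627 (minus strand, Bnip3), chr7:126799364-126799393 (minus strand, Aldoa), chr2:71873133-71873162 (plus strand, Pdk1), chr4:119108684-119108713 (plus strand, Slc2a1), chr17:46025361-46025390 (minus strand, Vegfa) and chr6:82774664-82774693 (minus strand, Hk2), all upstream of a listed start. The first listed promoters of Aldoa and Vegfa had 0 matches, and their stretches lie before the second listed start. The stretches of Aldoa, Vegfa and Ldha lie inside the span of the gene.
Ldha: agcctaCACGTGggttcccgCACGTccgct
Pgk1: aggACGTGacaaatggaagtagCACGTctc
Bnip3: ggcgCACGCgccgCACGTGccaCACGCtcc
Aldoa: atgtggctcgagtCACGTcctagcggggcg
Pdk1: cccgcctacatggGCGTGtctttaaccagg
Slc2a1: CACGCctctcagagtcccgccccggACGTG
Vegfa: ccctggagtGCGTGccCACGTcagagagca
Hk2: tagccacggaacaCACGTcccaactctggc

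The first 5 of these genes were higher in both tumors, Slc2a1 and Vegfa were lower in both, and Hk2 was lower in one and higher in the other. The genes lie on several chromosomes: Bnip3 (chr7:138890836-138909506), Aldoa (chr7:126795234-126800994), Ldha (chr7:46842274-46855627) and Adm (chr7:110627657-110629820) on chromosome 7, Slc2a1 (chr4:119108745-119137330) on 4, Hk2 (chr6:82725025-82774454) on 6, Pfkp (chr13:6579874-6649060) on 13, Pgk1 (chrX:106187100-106203699) on X, Pdk1 (chr2:71873215-71903858) on 2 and Vegfa (chr17:46016993-46032377) on 17. Aldoa, Pgk1 and Ldha have processed pseudogenes that are near copies, and whether reads were shared with them is not given in the sources used here, so that their levels are uncertain to that extent.

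The libraries held 693333 to 14841414 UMIs, with medians of 1784 to 4842 UMIs and 4.5 to 11.5% mitochondrial UMIs per cell, and any pair of them shared 0 to 7 cell barcodes. Brca1, the targeted gene, had 0 UMIs in MG1, where 3 counts would be 0.792 CPM (counts for every 1000000 UMIs), 21 in MG2 (2.43 CPM), 202 in MT1 (10.1 CPM) and 425 in MT2 (9.97 CPM). The counted 3′ ends need not lie in the floxed part, so that these UMIs do not check the deletion. Clustering gave 11 clusters. Gland cells formed luminal secretory-like, luminal hormone-sensing-like and basal-like clusters. MT1 cells formed cluster 3 (led by Sfrp1), the epithelial-like cluster 4 (led by Ccl20) and cluster 5 (led by Prl2c3 and Cav1). MT2 cells formed cluster 1 (led by Grem1 and Ptgs2) and cluster 2 (led by Cenpe and Top2a). Fibroblast-like, endothelial-like and immune-like cells were left out of the comparisons, which used 20027 cells. In these cells the epithelial marker Epcam had a level of 3328 CPM in gland MG1, 3820 CPM in gland MG2, 1836 CPM in tumor MT1 and 13.6 CPM in tumor MT2, so that this marker was close to absent in MT2. The basal keratin Krt5 was at 0 in MT2 and Krt19 at 1.22 CPM, while Krt8 and Krt18 were lower than in the glands but still at 305 and 442 CPM and the basal marker Trp63 was at 11.7 CPM, against 2.52 in MG1 and 3.01 in MG2. The 10 fibroblast markers summed to 946 to 1005 CPM in gland MG1, 423 to 455 in gland MG2, 474 to 637 in tumor MT1 and 3484 to 3944 in tumor MT2, and their part in the results for MT2 was not tested. In MT2 Col1a2 (2351 CPM) and Dcn (772 CPM) carried most of that sum. Col1a1, Col3a1, Pdgfra and Gsn were also higher in MT2 than in MG2, at 86.5, 190, 79.3 and 173 CPM against 3.26, 4.76, 3.88 and 117, while Lum, Dpt, Mfap5 and Serping1 were at 1.17, 0.414, 0.755 and 3.51 CPM, below the 2.51, 1.75, 1.38 and 3.63 CPM of MG2.

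Aldoa, Pgk1, Ldha, Pdk1 and Bnip3 rose in both tumors, 5 of the 10 genes, and Slc2a1 and Vegfa fell in both, where 18.4% of all genes were called higher and 16.6% lower in both mice. Hk2 moved in opposite directions in the mice, lower in MT1 and higher in MT2. By edgeR's quasi-likelihood test with Benjamini-Hochberg adjustment over 13652 genes, 5 of the 10 were higher and 3 lower in MT1 than in MG1, where 32.2% of all genes were called higher and 27.1% lower. In MT2 against MG2, 8 were higher and 2 lower, where 32.7% of all genes were called higher and 34.3% lower. The median log2 fold change of the 10 genes was 0.72 in MT1 and 1.41 in MT2, beside 0.11 and -0.05 over all genes tested. Levels are given below as CPM scaled by the trimmed mean of M-values (TMM) and are compared only between libraries, never between genes. The plot of levels by library shows each of them.

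**Figure D1:**
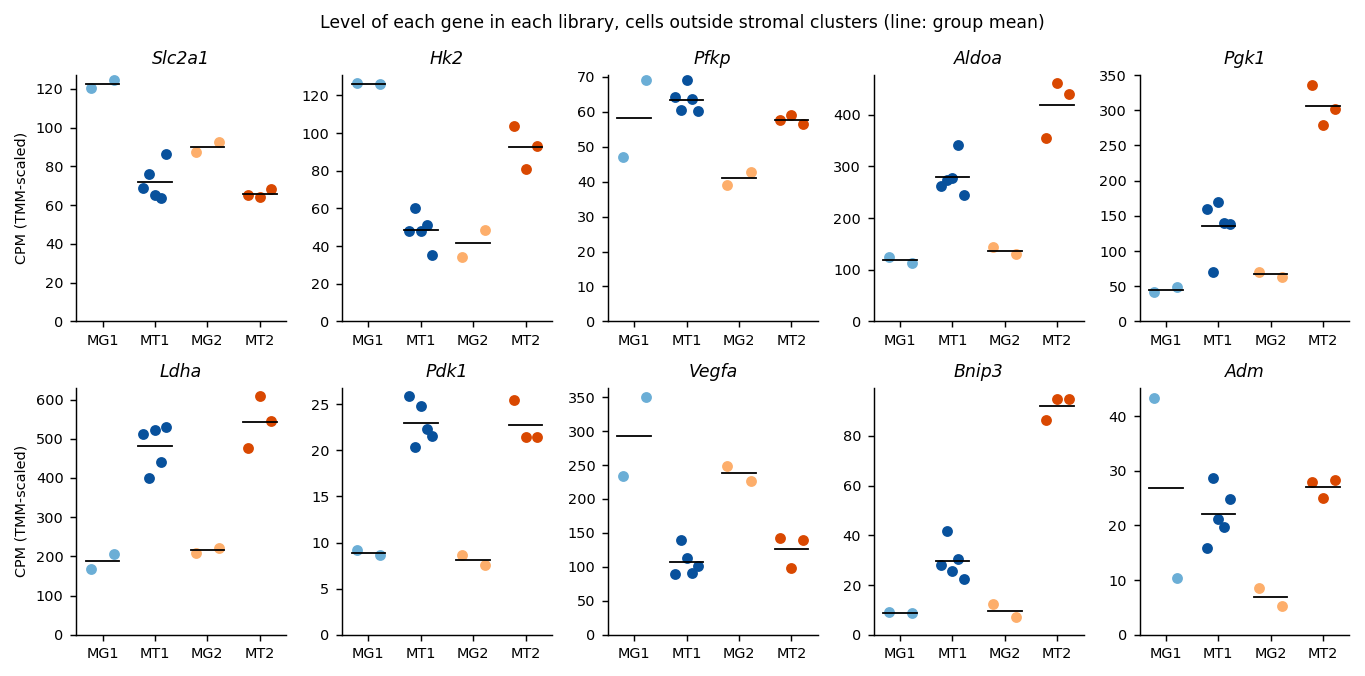
Level of each of the 10 genes (y axis, TMM-scaled CPM, from 0) in each library of MG1, MT1, MG2 and MT2 (x axis), over cells outside stromal clusters, with a line at the group mean. Aldoa, Pgk1, Ldha, Pdk1 and Bnip3 lie higher in every tumor library than in either gland library of the same mouse, while Slc2a1 and Vegfa lie lower, and Hk2 is lower in MT1 than in MG1 but higher in MT2 than in MG2.

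Ldha was at 169 and 206 CPM in the MG1 libraries and at 512, 401, 524, 442 and 529 in the MT1 libraries. In mouse 2 it was at 209 and 222 CPM in MG2 and at 476, 608 and 545 in MT2. All tumor libraries lay above all gland libraries. The log2 fold change was 1.38 (SE 0.175, edgeR adjusted p = 3.47e-06) in MT1 and 1.33 (SE 0.175, edgeR adjusted p = 2.38e-06) in MT2, and the difference between the mice was 0.05 (SE 0.236, edgeR adjusted p = 0.903).

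Aldoa was at 124 and 114 CPM in MG1 and at 263, 274, 277, 342 and 244 in MT1, and at 144 and 129.6 in MG2 and 355, 461 and 439.6 in MT2. The gland and tumor libraries did not overlap in either mouse, and the highest levels were those of MT2. Tumor over gland, the log2 value was 1.22 (SE 0.177, edgeR adjusted p = 1.50e-05) in MT1 and 1.61 (SE 0.177, edgeR adjusted p = 2.51e-07) in MT2.

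Pgk1 was at 41.6 and 48.4 CPM in MG1 and at 160.4, 71.0, 169, 140.1 and 138 in MT1, where the second library was the lowest by far. It was at 70.4 and 63.3 CPM in MG2 and at 336, 279 and 301 in MT2. The tumor of each mouse lay above its gland, and all MT2 libraries lay above all MT1 libraries. On the log2 scale the rise was 1.63 (SE 0.286, edgeR adjusted p = 0.000103) in MT1 and 2.19 (SE 0.261, edgeR adjusted p = 7.08e-07) in MT2.

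Pdk1, the kinase that closes the mitochondrial gate for pyruvate, was a low gene, at 9.15 and 8.64 CPM in MG1 and at 25.9, 20.4, 24.8, 22.3 and 21.6 in MT1. In mouse 2 it was at 8.62 and 7.53 CPM in MG2 and at 25.5, 21.4 and 21.4 in MT2. The tumors overlapped with each other, both MG1 libraries lay just above both of MG2, and tumor and gland lay apart in each mouse. The log2 fold change was 1.34 (SE 0.250, edgeR adjusted p = 0.000183) in MT1 and 1.49 (SE 0.194, edgeR adjusted p = 2.05e-06) in MT2, on 27 and 68 UMIs in MG1 and MG2.

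Bnip3 was at 9.15 and 8.64 CPM in MG1 and at 28.2, 41.6, 25.6, 30.4 and 22.4 in MT1. It was at 12.2 and 7.29 CPM in MG2 and at 86.4, 94.9 and 94.8 in MT2. The glands overlapped, and the tumors overlapped neither with each other nor with the glands. Bnip3 had the highest log2 fold change of the 10 genes in both mice, in MT1 within its error of that of Pgk1, with a log2 fold change of 1.70 (SE 0.326, edgeR adjusted p = 0.000250) in MT1 and 3.24 (SE 0.251, edgeR adjusted p = 2.38e-09) in MT2. The rise was larger in mouse 2 by 1.54 on the log2 scale; coded as mouse 1 minus mouse 2 the difference was -1.54 (SE 0.444, edgeR adjusted p = 0.00922). It was -1.40 (edgeR adjusted p = 0.213) without MG1 replicate 1 and -1.15 (edgeR adjusted p = 0.0597) without the 5% of cells with the most UMIs, and it was not called with secretory-like or basal-like gland cells alone, where MG1 had 3 and 2 Bnip3 UMIs.

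Slc2a1, the glucose transporter at the entry of the pathway, was at 120.3 and 124 CPM in MG1 and at 68.7, 76.1, 65.0, 63.9 and 86.2 in MT1. In mouse 2 it was at 87.4 and 92.7 CPM in MG2 and at 65.1, 64.2 and 68.4 in MT2. The tumors lay at like levels below both glands, and the glands differed from each other. The fold change on the log2 scale was -0.76 (SE 0.151, edgeR adjusted p = 0.000326) in MT1 and -0.45 (SE 0.150, edgeR adjusted p = 0.0135) in MT2. The call in MT2 was lost without a filter on low counts (-0.34, edgeR adjusted p = 0.0701) and without MT1 replicate 1, 2 or 5 or either MG2 library, where the values were -0.31, -0.31, -0.31, -0.29 and -0.19.

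Vegfa was at 233 and 351 CPM in MG1 and at 89.9, 140.0, 113, 91.3 and 101 in MT1, and at 249 and 227 in MG2 and 143, 98 and 139 in MT2. All tumor libraries lay below all gland libraries. Tumor over gland, it came to a log2 value of -1.42 (SE 0.197, edgeR adjusted p = 9.39e-06) in MT1 and -0.91 (SE 0.207, edgeR adjusted p = 0.000828) in MT2. Without MG2 replicate 1 the second was -0.63 (edgeR adjusted p = 0.0528).

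Hk2, which commits glucose to the pathway, was at 126 CPM in both MG1 libraries and at 48.2, 60.0, 48.3, 51.1 and 35.5 in MT1. It was at 34.5 and 48.7 CPM in MG2 and at 104, 80.9 and 93 in MT2. Gland and tumor thus changed places between the mice. The log2 fold change was -1.38 (SE 0.188, edgeR adjusted p = 7.59e-06) in MT1 and 1.15 (SE 0.201, edgeR adjusted p = 5.98e-05) in MT2. The call in MT2 was lost with all cells, stromal clusters included (0.35, edgeR adjusted p = 0.149), and against basal-like cells (0.62, edgeR adjusted p = 0.0719), and that in MT1 against secretory-like cells (-0.50, edgeR adjusted p = 0.136). The difference between the mice was -2.53 (SE 0.276, edgeR adjusted p = 7.35e-07).

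Adm was at 43.3 and 10.4 CPM in MG1, so that the 2 libraries of 1 gland differed widely, and at 15.9, 28.6, 21.1, 19.8 and 24.8 in MT1. It was at 8.62 and 5.17 CPM in MG2 and at 28.0, 24.9 and 28.3 in MT2. MG1 and MT1 overlapped, with a log2 fold change of -0.59 (SE 0.297, edgeR adjusted p = 0.0950; -0.71, adjusted p = 0.0434, with RLE size factors and -1.65, adjusted p = 2.19e-05, with all cells), whereas MT2 lay above MG2 by 1.97 (SE 0.323, edgeR adjusted p = 3.00e-05). The MG1 library with the high level also had the highest summed level of dissociation stress genes, 12917 CPM against 2585 to 7388 in the other libraries, and the part of that difference in the result was not tested. Without that library (MG1 replicate 1) the value in MT1 was 1.21 (edgeR adjusted p = 0.0858), and without MG1 replicate 2 it was -0.95 (edgeR adjusted p = 0.00244), so that the direction of Adm in mouse 1 rests on 1 library. The difference between the mice was -2.56 (SE 0.440, edgeR adjusted p = 0.000139), and without MG1 replicate 1 it was -0.80 (edgeR adjusted p = 0.408).

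Pfkp was at 47.0 and 69.1 CPM in MG1 and at 64.0, 60.4, 68.9, 63.7 and 60.3 in MT1, and at 39.0 and 42.8 in MG2 and 57.5, 59.1 and 56.5 in MT2. The mouse 1 libraries overlapped and the mouse 2 libraries did not. Tumor over gland, the log2 value was 0.22 (SE 0.171, edgeR adjusted p = 0.280) in MT1 and 0.50 (SE 0.158, edgeR adjusted p = 0.0101) in MT2. The value in MT1 was 0.45 without MG1 replicate 2, where it was called (edgeR adjusted p = 0.0428), and -0.00357 without MG1 replicate 1.

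In the contrast of the tumor-to-gland changes of the mice, 0 of the 10 genes had a higher log2 change in mouse 1 and 3 a lower one, namely Hk2, Bnip3 and Adm. Of all genes 26.4% and 17.1% were called in these directions (3610 and 2328 genes, against 3029 and 2941 by DESeq2). Between the tumors themselves, 0 of the 10 were higher in MT1 and 4 lower, where 35.3% and 33.1% of all genes were called higher and lower. The 4 genes lower in MT1 were Bnip3 (log2 fold change -1.65, SE 0.162, edgeR adjusted p = 5.11e-08), Pgk1 (-1.17, SE 0.186, edgeR adjusted p = 2.16e-05), Hk2 (-0.93, SE 0.152, edgeR adjusted p = 2.71e-05) and Aldoa (-0.58, SE 0.131, edgeR adjusted p = 0.000753). The other 6 genes were not called, with log2 values from -0.29 for Adm to 0.14 for Pfkp, although Vegfa was called without MT1 replicate 2 (-0.44, edgeR adjusted p = 0.0270). In the contrast of the mice, Vegfa was called without that library as well (-0.78, edgeR adjusted p = 0.0321), and Slc2a1 without MT1 replicate 5 (-0.54, edgeR adjusted p = 0.0445). Each tumor came from 1 animal, so that tumor and animal cannot be told apart, and the tumors also differed in the summed level of 18 proliferation genes, at 835 to 1637 CPM in MT1 and 2037 to 2745 CPM in MT2, whose part in these values was not tested.

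With the animal as the replicate (1 sum per mouse and tissue, the mouse as a block) edgeR called 0 of 14947 genes, which is 0% of them, while 2216 had an unadjusted p under 0.05 and DESeq2 called 1379. Of the 10 genes, 5 had an unadjusted p under 0.05 in this edgeR fit, from 0.00754 for Pgk1 through 0.0169 for Ldha, 0.0182 for Aldoa and 0.0184 for Bnip3 to 0.0460 for Pdk1. DESeq2 called Pgk1 (log2 fold change 2.03, DESeq2 adjusted p = 0.00608) and Bnip3 (2.54, DESeq2 adjusted p = 0.0121). The fit leaves 1 residual degree of freedom, so that a missed threshold says little.

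A gland mixes 3 kinds of epithelium, and the tumors were therefore also compared with the gland cells of each kind alone, an alternative that was added after the data had been seen. The basis was 275 secretory-like, 269 hormone-sensing-like and 109 basal-like cells of MG1, and 917, 916 and 229 cells of MG2. Of the MG1 cells, 244, 242 and 96 came from replicate 1. Replicate 2 gave 31 secretory-like, 27 hormone-sensing-like and fewer than 20 basal-like cells. Against each of the 3 kinds and in both mice, 6 comparisons in all, Aldoa, Pgk1, Ldha, Pdk1 and Bnip3 were called higher and Vegfa lower in the tumor by edgeR, as were 7.27% (higher) and 3.53% (lower) of the 12350 genes tested in all 6. Bnip3 had 3 UMIs in the secretory-like and 2 in the basal-like cells of MG1, and Pdk1 1 UMI in the basal-like cells of MG1, so that no fold is given for these. The 6 comparisons share the tumor libraries and are no independent repeats. Against basal-like cells, the smallest group, the median of all genes was itself at 0.53 in MT1 and 0.35 in MT2, so that those values are to be read relative to it.

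**Figure D2:**
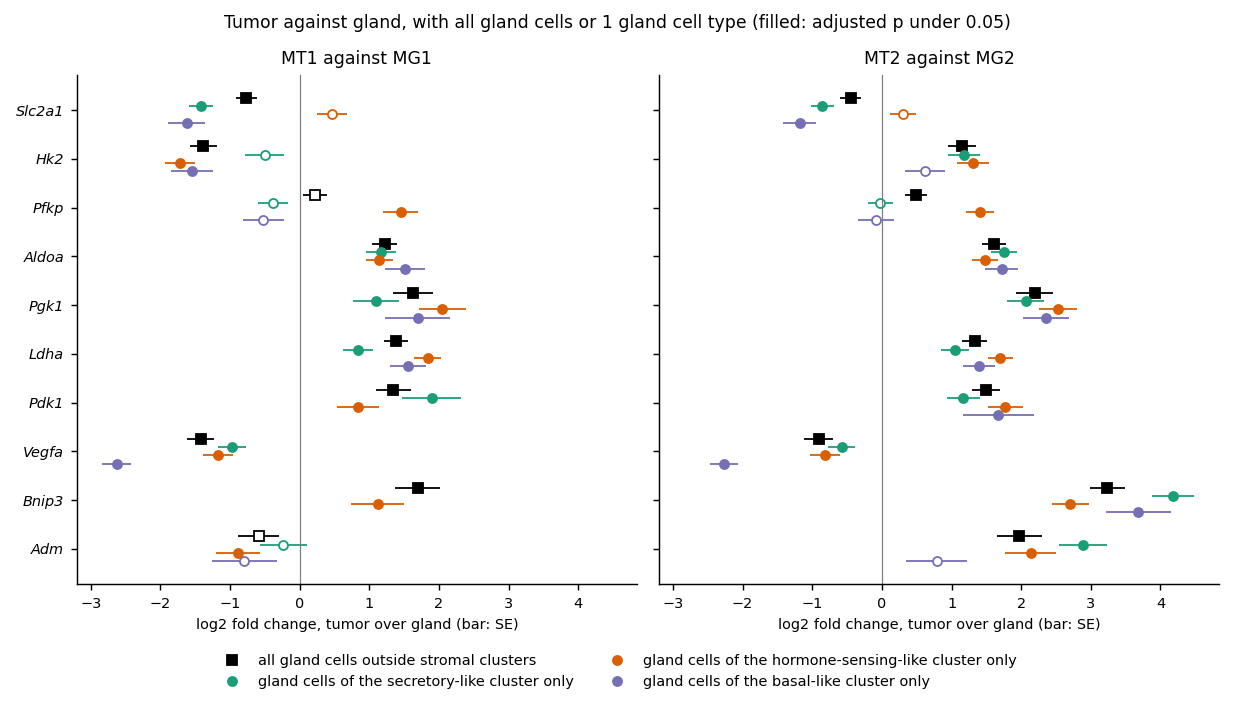
log2 fold change of tumor over gland (x axis, with its SE as a bar) of each gene (y axis) in mouse 1 and mouse 2, against all gland cells outside stromal clusters (squares) or against gland cells of 1 kind (circles), filled where the edgeR adjusted p was under 0.05. Values that rest on 3 or fewer gland UMIs are left out; Slc2a1 and Pfkp change sides of 0 with the kind of gland cell, while Vegfa stays below 0 and Aldoa, Pgk1, Ldha and Pdk1 above it.

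The fall of Slc2a1 held against secretory-like and basal-like cells and not against hormone-sensing-like cells. In MT1 it was -1.42 against secretory-like cells (edgeR adjusted p = 1.00e-06), -1.62 against basal-like cells (edgeR adjusted p = 1.51e-05) and 0.46 against hormone-sensing-like cells (edgeR adjusted p = 0.0796). In MT2 it was -0.86 (edgeR adjusted p = 8.66e-05), -1.18 (edgeR adjusted p = 0.000108) and 0.31 (edgeR adjusted p = 0.154). Pfkp showed the converse: it was higher than in hormone-sensing-like cells by 1.45 in MT1 and 1.40 in MT2 (edgeR adjusted p = 8.39e-05 and 3.66e-06), and was not called against secretory-like cells (-0.38 and -0.02) or basal-like cells (-0.52 and -0.08).

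Vegfa fell most against basal-like cells, by 2.63 in MT1 and 2.27 in MT2 on the log2 scale (edgeR adjusted p = 1.31e-11 and 5.15e-11), and least against secretory-like cells, by 0.97 and 0.58 (edgeR adjusted p = 0.000551 and 0.0108). Hk2 in MT1 was lower than in hormone-sensing-like (-1.72) and basal-like cells (-1.54), with -0.50 against secretory-like cells (edgeR adjusted p = 0.136). In MT2 Hk2 was higher than in secretory-like (1.18) and hormone-sensing-like cells (1.31), with 0.62 against basal-like cells (edgeR adjusted p = 0.0719). Adm in MT1 was lower than in hormone-sensing-like cells (-0.88, edgeR adjusted p = 0.0237). In MT2 it was higher than in secretory-like (2.88) and hormone-sensing-like cells (2.14), with 0.79 against basal-like cells (edgeR adjusted p = 0.133).

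By counts, against secretory-like cells 5 of the 10 genes were higher and 2 lower in MT1, where 26.5% and 24% of the 12869 genes tested were called higher and lower, and 7 were higher and 2 lower in MT2, where the shares were 33.8% and 31.8%. Against hormone-sensing-like cells 6 were higher and 3 lower in MT1 (29.5% and 23.3% of 13082 genes) and 8 higher and 1 lower in MT2 (32% and 31.7%). Against basal-like cells 5 were higher and 3 lower in MT1 (21.1% and 14.6% of 13084 genes) and 5 higher and 2 lower in MT2 (29.8% and 20.3%).

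The levels by cluster, given next as CPM of the UMIs of that cluster with the mean over libraries of at least 20 such cells, are a description without a test. In the gland epithelium Slc2a1 was high in basal-like cells (151 CPM in the 1 MG1 library with enough cells, 167 in MG2) and secretory-like cells (159.7 and 119) and low in hormone-sensing-like cells (47.6 and 59.1), while the tumor clusters lay at 54.2 to 79.9. Among the 3 epithelial kinds, Vegfa was highest in basal-like cells (552 and 679 CPM), followed by hormone-sensing-like (275 and 247) and secretory-like cells (183 and 189), and the tumor clusters lay at 73.4 to 145. Pgk1 differed within MT1, from 78.2 CPM in cluster 3 through 169 in the epithelial-like cluster 4 to 216 in cluster 5, and was at 292 and 295 in the MT2 clusters 1 and 2. Bnip3 was at 43.5 CPM in cluster 4 of MT1 against 22.1 and 23.5 in clusters 3 and 5, and at 102 in cluster 1 of MT2 against 71.9 in cluster 2, the cluster led by mitotic genes. Ldha differed less over the tumor clusters, at 450.1, 475 and 562 CPM in clusters 3, 4 and 5 and at 519 and 526 in clusters 1 and 2. Summed, the 10 genes made up 1127, 1315 and 1473 CPM in clusters 3, 4 and 5 and 1768 and 1572 in clusters 1 and 2, against 870.5 in MG1 and 812 in MG2 for hormone-sensing-like, 952 and 885 for secretory-like and 1290 and 1451 for basal-like cells. Fibroblast-like cells of the glands lay above all of these, at 1942 CPM in MG1 and 1849 in MG2. Those of the tumors had 1559 in MT1 and 1505 in MT2. Immune-like cells of MT2 had 1846 CPM, and endothelial-like cells 847 in MG2 and 1234 in MT1.

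**Figure D3:**
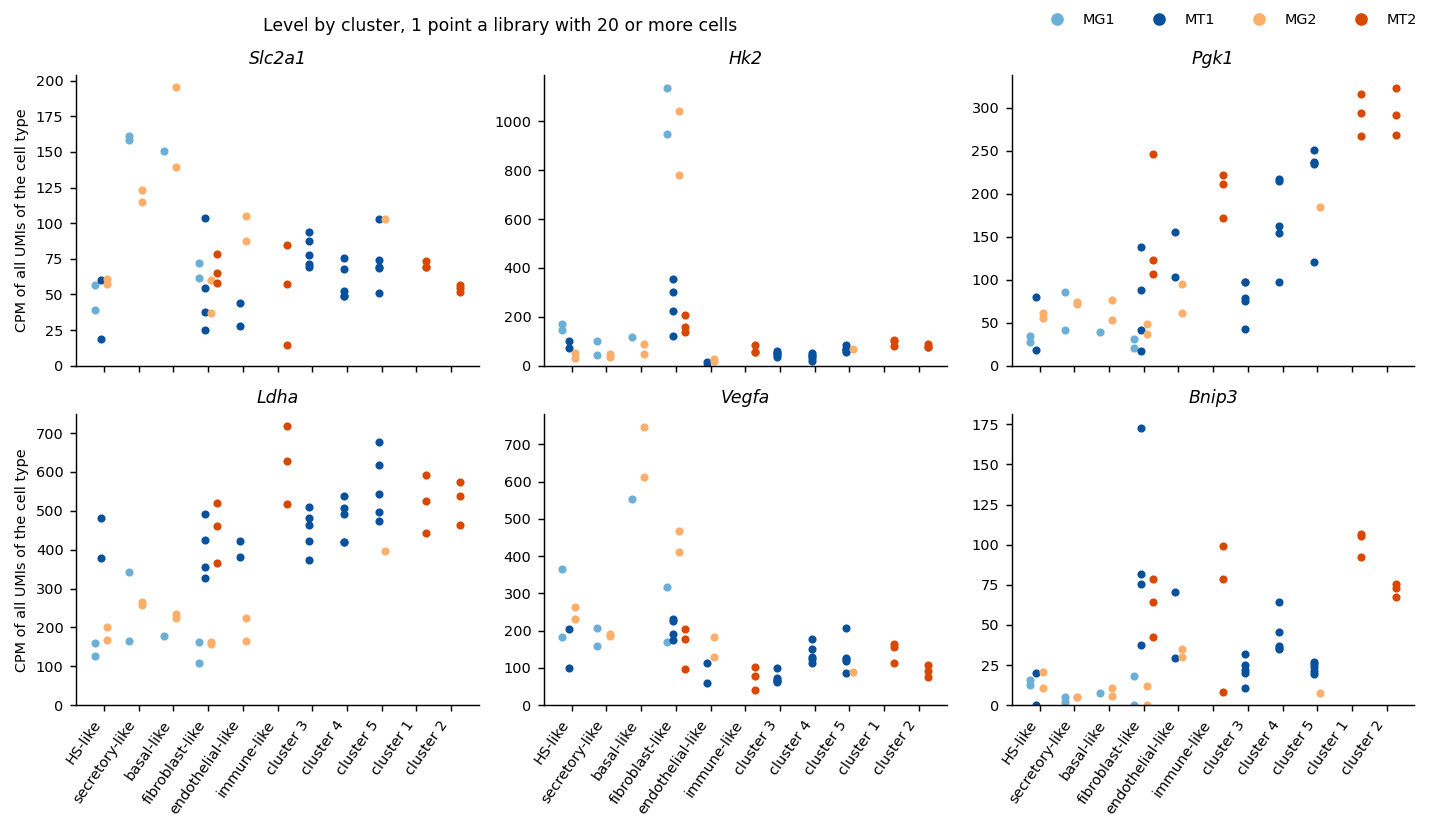
Level of Slc2a1, Hk2, Pgk1, Ldha, Vegfa and Bnip3 (y axis, CPM of all UMIs of the cluster, from 0) in each cluster (x axis; HS-like is luminal hormone-sensing-like), with 1 point for each library that had at least 20 cells there, colored by group. Hk2 in fibroblast-like cells of the glands, at 779 to 1135 CPM, stands above every other point of Hk2, and Vegfa is highest in basal-like cells of the glands.

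Hk2 was far higher in fibroblast-like cells of the glands than in any epithelial or tumor cluster, at 947 and 1135 CPM in the MG1 libraries and 779 and 1042 in the MG2 libraries. Fibroblast-like cells of the tumors had 251 ± 102 CPM (SD, n = 4 libraries) in MT1 and 169 ± 35.8 (SD, n = 3) in MT2. The ranges did not overlap, since the highest tumor library was at 355. At a finer clustering the fibroblast-like cells divided into a cluster of 411 cells, 97.1% of them from tumors, and a cluster of 289 cells, 13.8% of them from tumors, so that gland and tumor fibroblast-like cells largely lay in different clusters. Stromal clusters were 16.4 and 32.4% of the MG1 cells, 9.4 to 10.0% of MG2, 2.6 to 5.2% of MT1 and 3.5 to 6.5% of MT2, and the part that RNA of such cells had in the other Hk2 values was not tested.

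Adm was high in fibroblast-like cells of the glands as well, at 466 and 116 CPM in the MG1 libraries and 134 ± 70.6 (SD, n = 2) in MG2, against 92.9 ± 33.1 (SD, n = 4) in MT1 and 71.7 ± 46.7 (SD, n = 3) in MT2. Unlike for Hk2, the libraries overlapped, from 84.5 CPM in MG2 to 138 in MT1, and endothelial-like cells of MT1 had 99.4 CPM (44.0 and 155 in 2 libraries). At the finer clustering the mean of Adm in fibroblast-like cells of MT1 was lower, at 33.0 CPM. The library of MG1 with the high value is the one that was high in epithelial cells, where hormone-sensing-like cells had 49.2 CPM against 11.7 in the other. Ldha and Aldoa in stromal cells went the way of the tumor cells. Ldha was at 135 and 160.1 CPM in fibroblast-like cells of MG1 and MG2 and at 399.6 and 449 in those of MT1 and MT2, and Aldoa at 55.3 and 64.4 against 324 and 311. Endothelial-like cells had 195 CPM of Ldha in MG2 and 402 in MT1, and the hormone-sensing-like cells found in MT1, 40 cells in 2 libraries, had 429.7 against 143 in MG1. The tumor clusters themselves had 450.1 to 562 CPM of Ldha, and the part of free RNA from these cells in the stromal values was not tested.

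Of 16 other glycolysis genes tested, 10 were higher and 3 lower in MT1 and 12 higher and 3 lower in MT2 by edgeR, where the shares over all genes were 32.2% and 27.1% in MT1 and 32.7% and 34.3% in MT2, with medians of 0.76 and 1.20 on the log2 scale. Eno1, an enolase, rose from 54.4 CPM in MG1 to 438 in MT1 (2.97, edgeR adjusted p = 6.05e-08) and from 89.9 in MG2 to 299 in MT2 (1.73, edgeR adjusted p = 3.18e-06). Pkm, pyruvate kinase, rose by 2.56 and 1.39, with 1128 CPM in MT1 and 612 in MT2. Pgam1, phosphoglycerate mutase, rose by 1.28 and 2.49, the first of which was not called without MG1 replicate 1 (1.55, edgeR adjusted p = 0.0847) or against hormone-sensing-like (0.80) or basal-like cells (1.64). The lactate exporter Slc16a3 was at 1.19 CPM in MG2 and rose to 41.3 in MT2 (5.09, edgeR adjusted p = 1.08e-09), and in mouse 1 it had 3 UMIs in MG1 and 8.15 CPM in MT1. The aldolase Aldoc, a sister of Aldoa, fell by 2.54 in MT2 on the log2 scale, but was not called against basal-like cells (-0.74, edgeR adjusted p = 0.160). In MT1 Aldoc had 0.46 (edgeR adjusted p = 0.0427). It did not pass under RLE scaling (0.33, edgeR adjusted p = 0.124), by DESeq2, without the 5% of cells with the most UMIs, with only clusters of the own tissue, with only the groups compared, or when MG1 replicate 2, MT1 replicate 3 or 4, or MT2 replicate 1 or 3 was left out, with values from 0.33 to 0.44 in these, and was -0.39 against secretory-like cells.

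Of 24 other HIF target genes tested, 12 were higher and 5 lower in MT1 and 13 higher and 9 lower in MT2, where the shares over all genes were 32.2% and 27.1% in MT1 and 32.7% and 34.3% in MT2, so that the lower counts were near or below those shares. Plod2, a collagen lysyl hydroxylase, rose in both (log2 fold change 3.58, or 1.83 with all cells, and 3.56, edgeR adjusted p = 5.64e-08 and 7.61e-10), as did the mitochondrial protein gene Fam162a (2.72 and 3.62). Stc2, a secreted glycoprotein, fell in both, with 137 CPM in MG1 but 4.39 in MT1, and 110.3 in MG2 but 0.101 (4 UMIs) in MT2. The fall in MT1 (-4.98) was not called against secretory-like cells (-1.17, edgeR adjusted p = 0.124) and reversed in sign against basal-like cells (0.63, edgeR adjusted p = 0.771). Lox, a collagen cross-linking enzyme, fell in MT1 (-1.77, edgeR adjusted p = 0.00152) and rose in MT2 (5.88, edgeR adjusted p = 1.13e-10). The rise in MT2 rests on 7 UMIs in MG2. The fall in MT1 was -0.42 (edgeR adjusted p = 0.780) without MG1 replicate 1 and -0.66 (edgeR adjusted p = 0.312) without the 5% of cells with the most UMIs, and was not called against secretory-like or basal-like cells, and the rise in MT2 was 1.80 with all cells and 3.54 against basal-like cells.

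Of the 6 genes of oxygen sensing tested, 2 rose and 2 fell in MT1, and 3 rose and 2 fell in MT2, and all of these but the 3 in MT2 were near the shares over all genes. The mRNA of Hif1a, the HIF subunit that is controlled mainly as a protein, went in opposite directions, down from 198 CPM in MG1 to 60.8 in MT1 (-1.70, edgeR adjusted p = 1.95e-08) and up from 179 in MG2 to 532 in MT2 (1.57, edgeR adjusted p = 3.42e-08). The fall of Hif1a in MT1 was not called against secretory-like cells (-0.37, edgeR adjusted p = 0.137) or basal-like cells (-0.66, edgeR adjusted p = 0.0961). Epas1, which encodes HIF-2 alpha, fell in both, from 23.7 CPM in each gland to 2.83 in MT1 and 0.454 in MT2. Vhl, which marks the HIF subunits for destruction, had 1.19 in MT1 and 0.83 in MT2 on the log2 scale. In MT1 its call was lost with all cells (0.69, edgeR adjusted p = 0.0504), without MG1 replicate 1 (1.07, edgeR adjusted p = 0.243), and against hormone-sensing-like (0.58, edgeR adjusted p = 0.287) and basal-like cells (edgeR adjusted p = 0.241), and in MT2 against basal-like cells (1.36, edgeR adjusted p = 0.113). Arnt, the shared partner subunit, rose by 1.14 in MT2 and had 0.04 in MT1 (edgeR adjusted p = 0.932).

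Of 19 genes of mitochondrial oxidation tested, 16 rose and 0 fell in MT1, where 32.2% of all genes were called higher and 27.1% lower, and 10 rose and 3 fell in MT2, where those shares were 32.7% and 34.3%. Idh3a and Fh1 of the citric acid cycle rose by 2.05 and 1.88 in MT1 and by 0.92 and 1.04 in MT2 on the log2 scale. Mdh2 rose by 1.64 and 1.95, and of the respiratory chain Cox5a rose by 2.09 and 0.70 and Ndufs1 by 0.97 and 1.10. Pdhb, a subunit of the enzyme that Pdk1 inhibits, fell by 1.06 in MT2 on the log2 scale (edgeR adjusted p = 3.16e-06). In MT1 Pdhb had 0.39 (edgeR adjusted p = 0.0420), and did not pass under RLE scaling (0.26, edgeR adjusted p = 0.160), by DESeq2, without the 5% of cells with the most UMIs, with only the groups compared (0.32), against secretory-like (0.26), hormone-sensing-like (0.45) or basal-like cells (0.49), or when MG1 replicate 2 (0.32), MT1 replicate 1 or any MT2 library (each 0.38) was left out. Of the proliferation genes 17 of 18 rose and 0 fell in MT1, and 18 rose in MT2, and of 14 dissociation stress genes 2 rose and 6 fell in MT1 and 2 rose and 10 fell in MT2, beside the same shares over all genes. What these lists have to do with the 10 genes was not tested.

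Within the tumors the question was whether the 10 genes vary together from cell to cell. The 7359 MT1 and 9790 MT2 cells of tumor clusters were each thinned to 1000 UMIs, and the Pearson r of a gene with the summed other 9 was taken within each library. Counts were sparse: Ldha had a UMI in 35.2% of thinned MT1 cells and 37% of MT2 cells, and Pdk1 in 2.37% and 2.24%. All values were low, the cells of a library share their library, and no test was made. In MT1 the mean r over libraries was 0.113 for Aldoa, 0.111 for Ldha, 0.0973 for Pgk1, 0.0772 for Vegfa and 0.0674 for Bnip3, and in MT2 it was 0.0944 for Bnip3, 0.0832 for Pgk1, 0.0792 for Aldoa, 0.0769 for Ldha and 0.0380 for Vegfa. These were the 5 highest of the 10 in MT1, while in MT2 Slc2a1 (0.0450) lay above Vegfa. Over 1597 other genes in MT1 and 1640 in MT2 the 95th percentile of r with the summed 10 genes was 0.0454 and 0.0289. Those genes had a UMI in at least 10% of thinned cells, which of the 10 genes Aldoa, Pgk1 and Ldha had in both tumors and Vegfa in MT2, so that this percentile is no like-for-like measure for the others.

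**Figure D4:**
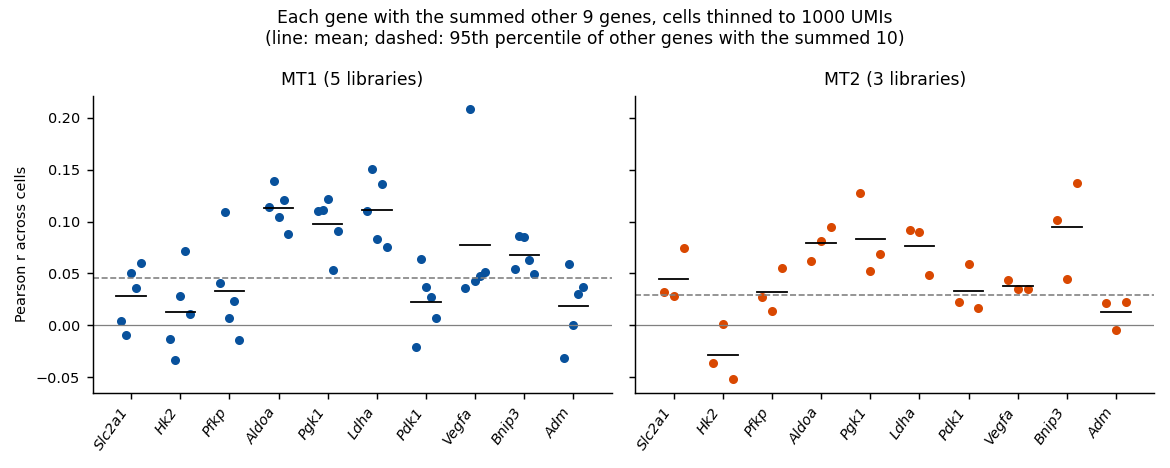
Pearson r across cells (y axis) of each gene with the summed other 9 (x axis), 1 point for each MT1 library (left) and MT2 library (right), with a line at the mean and a dashed line at the 95th percentile of r of more widely detected other genes with the summed 10 (0.0454 in MT1, 0.0289 in MT2). Aldoa, Ldha, Pgk1 and Bnip3 lie above the dashed line in every library, and Hk2 has the lowest mean in both tumors.

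Hk2 stood at the low end in both tumors, with a mean r of 0.0128 in MT1 and -0.0287 in MT2, and Adm (0.0190 and 0.0134) was next to it. The mean for Vegfa in MT1 rested on replicate 2, where r was 0.208, against 0.0360 as the lowest. Of the 45 pairs of genes, 38 in MT1 and 35 in MT2 had a mean r above 0, and 8 had a positive r in all 5 MT1 libraries and 19 in all 3 MT2 libraries, a condition that is stricter with more libraries. The leading pairs were Aldoa with Ldha in MT1 (mean r 0.0975, 0.0767 to 0.126 over libraries) and Ldha with Bnip3 in MT2 (0.0719, 0.0432 to 0.117). Stated in UMIs, MT1 cells with a Bnip3 UMI had 1.82 UMIs of the other 9 genes per 1000 and cells without one 1.21, and in MT2 the values were 2.01 and 1.50. MT2 cells with a Hk2 UMI had 1.38 against 1.56 in cells without.

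Among all other genes, those most like the group shared Fam162a between the tumors. In MT2 they were Fam162a (mean r 0.145 with the summed 10 genes), the glycolytic enzyme gene Tpi1 (0.111), the cytokine gene Mif (0.106) and the glycolytic enzyme gene Gapdh (0.0806), followed by Thbd, Bsg, Prdx5 and Fth1. In MT1 they were Lgals1 (0.129), Pkm (0.122), Cav1 (0.122), Cav2 (0.122), Fam162a (0.118), Vim (0.111), S100a6 (0.108) and Msn (0.103). Within clusters of MT1 Pkm, Fam162a and Cav2 had 0.114, 0.108 and 0.0912, Lgals1 had 0.0683, Cav1, which leads cluster 5, and Msn had 0.0534 and 0.0531, and S100a6 and Vim had 0.0426 and 0.0252. In MT1 the 4 other glycolysis genes that were seen often enough all lay above the 95th percentile of other genes, as did the 4 in MT2, and none of the 8 mitochondrial oxidation genes in MT1 or the 7 in MT2 did. The other HIF targets were mixed, with 3 of 5 above it in MT1, where Ddit4 had -0.0310, and 5 of 6 in MT2. The summed 10 genes had an r of -0.162 to -0.0506 with the mitochondrial share of a cell, of -0.0364 to 0.109 with its total UMIs, of -0.0558 to 0.0186 with proliferation genes and of -0.155 to -0.00970 with dissociation stress genes over the 8 tumor libraries.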

How the data were processed

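The data were single-cell UMI counts of 12 Drop-seq libraries, of which the labels place 2 in MG1, 5 in MT1, 2 in MG2 and 3 in MT2. The authors deposited 1 table of raw UMI counts, made with the Drop-seq tools and, per the labels, STAR on mouse build GRCm38.p6; counting is from 3′ ends, and the use of strand is not given in the sources used here. The table holds the 21157 cells that the study states, each with at least 800 genes detected, and all columns were assigned to a library by their names. No doublet caller was run. The members and all gene lists were chosen with earlier results of these data known.

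Clusters came from scanpy 1.11.5 with the Leiden method of leidenalg 0.10.2 (3000 variable genes without the members and the pathway lists, 30 principal components, 20 neighbours, resolution 0.6). A cluster was named from at least 3 markers raised by a log2 fold of 1, which also had to be no minority of their marker list. A name also had to pass checks on the leading genes and the depth of the cluster. Counts were summed per library over cells outside stromal clusters, filtered with filterByExpr, scaled by TMM and tested with edgeR 4.0.16 (quasi-likelihood, all 12 libraries in 4 groups, Benjamini-Hochberg over all genes tested, threshold 0.05). The number of libraries and the UMIs given limit the precision. The comparison over mice used 1 sum per mouse and tissue with the mouse as a block, since the labels give the same mouse for each gland and tumor. Replicate numbers were given in accession order and pair nothing. Levels by cluster are CPM of summed UMIs, without a test. For co-variation, cells were thinned to 1000 UMIs and Pearson r of log2(UMI + 1) was taken within each library, over genes seen in at least 10% of cells. Both procedures were first tested on simulated data with known changes.

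Alternatives were size factors by relative log expression (RLE), DESeq2 1.42.0, no filter on low counts, other choices of cells, only the groups compared, leaving out each library, a finer clustering (resolution 1) and, for co-variation, 500 UMIs, no thinning, Spearman's rho and values within clusters. The comparison with 1 kind of gland cell was added after the data had been seen. The text names all members, the 3 genes of each pathway list (glycolysis, HIF targets, oxygen sensing, mitochondrial oxidation) with the largest change past the threshold in each mouse, and the 8 other genes most correlated with the members in each tumor. For the proliferation and dissociation stress lists only counts and sums are given. Promoters were RefSeq sequences of GRCm38.p6, matched by symbol.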

Additional observations from a re-analysis of the deposited data

Results flagged for a closer look

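The change from gland to tumor differed between the mice, by the test of that difference itself, for 3 of the 10 genes. Coded as mouse 1 minus mouse 2 on the log2 scale, it was -2.53 for Hk2, -1.54 for Bnip3 and -2.56 for Adm. The value for Hk2 stayed between -2.98 and -2.45 when any library was left out, while those for Bnip3 (-1.40, edgeR adjusted p = 0.213) and Adm (-0.80, edgeR adjusted p = 0.408) were not called without MG1 replicate 1. With secretory-like gland cells alone the value for Bnip3 was -0.95 (edgeR adjusted p = 0.507), and with basal-like gland cells alone those for Bnip3 and Adm were -1.40 (edgeR adjusted p = 0.577) and -1.58 (edgeR adjusted p = 0.0948), the Bnip3 values on 3 and 2 UMIs in MG1. Among 10 checks for a library of MT1 far from the others, 1 for each gene, 0 met the criterion.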

How the results depend on the processing

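Depth and design limit these results. MG1 had 2 libraries of unequal size, at 713 and 105 cells. Some gland values rest on a few UMIs, and each tissue came from 1 animal. RLE size factors moved the median of all genes by -0.12 in MT1 against MG1 and by -0.15 in the difference between mice. In MT2 against MG2 the count of the 10 genes called lower was 1 without a filter on low counts and 1 against hormone-sensing-like cells only, and ranged from 0 to 2 when a library was left out; the count called higher was 5 against basal-like cells only. The count with a lower log2 change in mouse 1 was 1 against basal-like cells only and ranged from 1 to 4 when a library was left out. Over mice, DESeq2 called 2 of the 10, against 0 by edgeR with the mouse as a block and 0 without that block, which changed no other call. The mean r of the members was 0.0583 in MT1 and 0.0467 in MT2; it was 0.0320 and 0.0189 at 500 UMIs and 0.0930 and 0.117 without thinning, where depth differs between cells. The summed members in hormone-sensing-like cells of MG2 were at 765 CPM at the finer clustering, against 812.

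Values that changed sign were mostly near 0. The difference between mice for Ldha (0.05) was -0.12 with RLE, -0.11 by DESeq2, -0.22 without the 5% of cells with the most UMIs, -0.21 against secretory-like cells and -0.18 to 0.18 when a library was left out. For MT1 against MT2, Pdk1 (0.01) was -0.0437 with RLE, -0.0440 by DESeq2, -0.0408 without a filter, -0.000327 with all cells, -0.00401 without the 5% of cells with the most UMIs and -0.12 to 0.11 when a library was left out, and Slc2a1 (0.12) was -0.0427 to 0.19 then. In MT1 against MG1, leaving out a library gave -0.00357 to 0.45 for Pfkp and -0.95 to 1.21 for Adm. Against 1 kind of gland cell, Pfkp was -0.38 (secretory-like) and -0.52 (basal-like) in MT1 and -0.0219 and -0.0840 in MT2, Slc2a1 was 0.46 and 0.31 (hormone-sensing-like) in MT1 and MT2, and Stc2 was 0.63 (basal-like) in MT1. The difference between mice for Pdk1 was then 0.73 (secretory-like, edgeR adjusted p = 0.366) and 1.26 (basal-like, edgeR adjusted p = 0.643). These Pdk1 values rest on 6 and 1 UMIs in MG1. The difference was 0.15 (hormone-sensing-like) for Slc2a1 and 0.0450 (hormone-sensing-like) for Pfkp. Of the pathway genes, Aldoc in MT1 (0.46) was -0.39 against secretory-like cells, and Arnt in MT1 (0.04) was -0.0827 with RLE, -0.0628 by DESeq2, -0.14 with all cells, -0.0750 without the 5% of cells with the most UMIs, -0.00640 with only the groups compared, -0.84 against basal-like cells and -0.17 to 1.05 when a library was left out. The cause was not tested in any of these. The direction of Aldoa, Pgk1, Ldha, Pdk1, Bnip3 and Vegfa in each tumor against its gland held under every alternative run, and of 154 levels by cluster 141 moved by less than 1 SD at the finer clustering.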

Other observations

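The finer clustering divided the MT2 cells further, and the 10 genes, which were not used for the clustering, were not level over the resulting clusters. A cluster of 2250 cells, led by Tcp11l1 and Celf4, had 115 ± 9.35 CPM of Bnip3 (SD, n = 3 libraries, 104 to 122). Bnip3 was itself among its 10 leading genes. The cluster led by Cenpe and Top2a had 71.6 ± 3.41 (68.0 to 74.7) and did not overlap with it. Median UMIs per cell were 2165 and 3583 in these clusters. The other large MT2 clusters, led by Ptgs2 and by Prelp, lay between, at 92.1 ± 10.6 and 106 ± 18.6, and the second overlapped with the first value (85.9 to 123). The mitochondrial gate gene Pdk1 had 29.6 ± 1.40 CPM (SD, n = 3) in the first of these clusters against 19.1 ± 1.36 in the one led by Cenpe and Top2a. Adm, the gene of the vessel-dilating peptide, was highest, among these 4 clusters, in that of 961 cells led by the matrix genes Prelp and Mgp, at 54.0 ± 5.27 CPM (SD, n = 3), where Pgk1 was lowest of the 4, at 234 ± 25.7. Hk2 was highest of the 4 in the cluster of 2919 cells led by Ptgs2 and Cxcl2, at 111 ± 13.6 CPM (SD, n = 3), against 71.5 ± 14.5 in the cluster led by Tcp11l1. The fibroblast-like MT2 cells, outside these 4, had 68.6 ± 46.2 CPM of Adm and 155 ± 25.0 of Hk2 (SD, n = 3). Cells of a cluster share their libraries, the clusters were drawn from the same cells, and these values carry no test.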
